A study of Arabidopsis thaliana with 16 samples.

Results

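Root tips of the Arabidopsis thaliana double mutant wer-1 myb23-1 were set against those of the Columbia wild type after 1 hour on medium with 140 mM NaCl, over every probe set of the Affymetrix ATH1 array other than the AFFX control probe sets. The comparison rests on 4 of the 16 arrays of the study, chosen by their titles: 2 of the wer myb23 mutant on salt and 2 of wild type on salt. The study also held wer myb23 and wild type arrays on standard medium, and arrays, on both media, of the mutants cpc-1 try-82 and scm-2, with 2 biological replicates in each of the 8 groups. All plants were in the Columbia background. Seedlings were grown for 5 days and transferred, and an array held RNA from about 30 pooled roots cut about 5 mm above the tip. RNA of a whole root tip mixes the epidermis with all other tissues, so fewer cells of a type and less RNA per cell cannot be told apart in any value below. The series title places the comparison within the question of how roots with altered hair patterning respond to salt.

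WEREWOLF and MYB23 are related MYB transcription factors of the root epidermis. They promote the non-hair fate: with bHLH partners and the WD-repeat protein TTG1 they activate GLABRA2, which holds back the hair programme, and they also activate small MYB proteins such as CAPRICE and TRIPTYCHON. The small MYB proteins move to neighbouring cells and act against the non-hair fate there, and the receptor-like kinase SCRAMBLED passes the positional cue from the cortex below. Roots without WEREWOLF and MYB23 form hairs in nearly all epidermal files, and roots without CAPRICE and TRIPTYCHON form almost none. Sodium chloride causes osmotic and ionic stress, and in wild type roots a rise in abscisic acid and a slowing of elongation are among its known early consequences.

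The values were MAS5 signals, a linear measure of brightness per probe set that the authors had scaled to a common trimmed mean. Across probe sets, the 2 wer myb23 arrays on salt correlated with r = 0.939 and the 2 wild type arrays on salt with r = 0.907, the lowest of the 8 groups. Pairs of 1 wer myb23 and 1 wild type array on salt gave r from 0.912 to 0.926, so the wild type replicates were no more alike than the genotypes were. The control probe sets for 25S rRNA read 9740 and 8903 on the wer myb23 arrays and 10299 and 8606 on the wild type arrays. For GAPDH, the 3′ over 5′ control ratio (log2), a measure of RNA integrity and of amplification, was 1.65 on both wer myb23 arrays and 2.17 on both wild type arrays. Over both media it ran from 1.45 to 1.68 in wer myb23 and from 2.17 to 2.43 in wild type, with no overlap (exact two-sided permutation test, n = 4 each, p = 0.0286, adjusted over 3 control measures 0.0429). The corresponding 3′ to middle ratio of actin ran from 1.70 to 2.03 in wer myb23 and from 2.19 to 2.56 in wild type, with the same p. With 2 arrays against 2 the smallest such p is 0.333. The permutations over both media exchanged arrays between media freely, so their p ignores the medium, and no permutation within each medium was run. The part of these ratios in the differences below was not tested.

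On salt, 35 of 17059 tested probe sets differed between wer myb23 and wild type (0.205%). Of these, 8 were higher in wer myb23 (0.0469%) and 27 were lower (0.158%). A probe set was called at a Benjamini-Hochberg adjusted p under 0.05 from limma, and differences are given as wer myb23 minus wild type on the scale log2(signal + 4.1) with their standard error (SE). At an unadjusted p under 0.05 there were 1598 probe sets, 762 higher and 836 lower, where 853 would pass by chance. The smallest difference called was 0.68 and the median size was 1.18. The count rested on single arrays: it was 10 (0 higher, 10 lower) without wer myb23 replicate 1, 31 (3 higher, 28 lower) without wer myb23 replicate 2, 58 (47 higher, 11 lower) without wild type replicate 1 and 51 (27 higher, 24 lower) without wild type replicate 2. Centring each array on its median left 20 calls, 8 higher and 12 lower.

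Of the 35 probe sets, 20 had exactly 1 gene in the platform annotation, 14 had none listed and 1 had several. The 20 genes comprised 5 that were higher in wer myb23 and 15 that were lower. The arrays of the genotypes did not overlap for any of the 35, where 38.3% of all tested probe sets had no overlap on salt (18.7% higher and 19.7% lower in wer myb23). The calls were made on these same arrays, so the lack of overlap is no separate result. Most of the 20 genes are known in the tables used here by a locus number only, and no function is given for those. ATPMEPCRB and AT2G43590 kept their call without each of the 4 salt arrays in turn, and CYP71B23 and AT5G35940 kept it without 3 of them. AT1G33670 kept it without 2, another 9 genes without 1 only, and 6 genes lost it whichever array was left out.

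**Figure D1:**
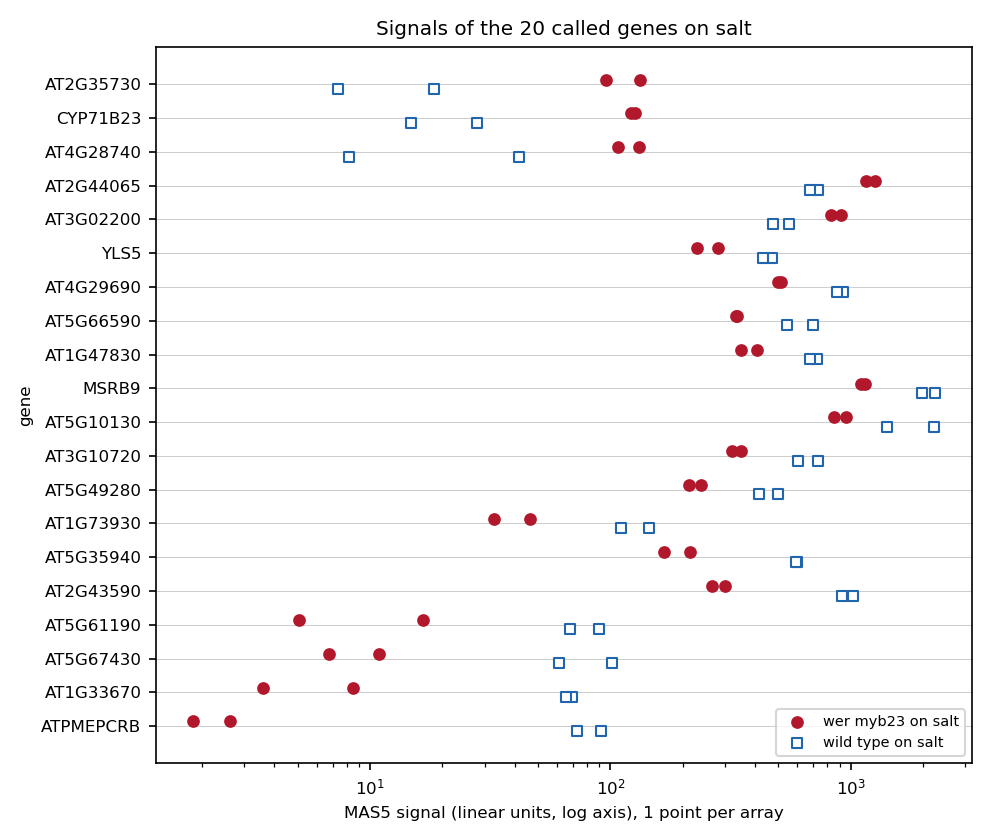
MAS5 signal on salt (linear units on a log axis) of the 20 called genes, 1 point per array, with wer myb23 as filled circles and wild type as open squares. The 5 genes at the top lie higher in wer myb23 and the 15 below lie lower. No gene has overlapping genotypes, which selection on these same arrays makes likely. ATPMEPCRB reads 2.63 and 1.84 in wer myb23 against 91.3 and 72.8 in wild type.

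The gene with the largest fall encodes an enzyme of the cell wall. ATPMEPCRB, or PME41, is a pectin methylesterase, an enzyme that removes methyl groups from the pectin of the wall. Its signal was 2.63 and 1.84 on the wer myb23 arrays, against 91.3 and 72.8 on the wild type arrays. Both mutant arrays lay under 21.7, the 25th percentile of all signals, and both wild type arrays lay well above it. The difference was -3.76 ± 0.47 (SE, n = 2 each, limma adjusted p = 0.00087). Without single salt arrays it ran from -3.92 to -3.61 and stayed called. With only the compared groups in the fit it was not called (adjusted p = 0.37), and with a pseudocount of 32 it was -1.73 (adjusted p = 0.0095). On standard medium the gene read 78.5 and 67.9 in wer myb23 and 97.5 and 88.0 in wild type, a difference of -0.33 ± 0.47 (adjusted p = 0.90). Within wer myb23 it therefore fell by 3.61 on the log2 scale between standard medium and salt (adjusted p = 1.5e-05), while within wild type the change was -0.18 (adjusted p = 0.89). Over all tested probe sets the salt response was called for 11.0% in wer myb23 and 8.89% in wild type, and it shares the salt arrays with the genotype comparison. The test of the difference between media did not pass (-3.43 ± 0.67, adjusted p = 0.21).

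AT2G43590 was lower in wer myb23 on both media. On salt its signal was 299 and 265 in wer myb23 and 921 and 1020 in wild type, and the genotypes lay far apart. The difference was -1.77 ± 0.23 (adjusted p = 0.00087), and without single salt arrays it ran from -1.85 to -1.68. On standard medium it was -1.02 ± 0.23, which did not pass the test over all probe sets (adjusted p = 0.13). AT5G35940 read 167 and 214 in wer myb23 and 600 and 593 in wild type on salt, and 197 and 171 in wer myb23 and 740 and 419 in wild type on standard medium. It read alike on the media, and its salt response of 0.04 in wer myb23 and 0.10 in wild type was not called. Its genotype difference passed on each medium, at -1.64 ± 0.25 on salt (adjusted p = 0.0048) and -1.58 ± 0.25 on standard medium (adjusted p = 0.0078). Without wer myb23 replicate 1 on salt the first of these was -1.46 (adjusted p = 0.090).

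Other called genes were dim on the wer myb23 arrays and moderate on the wild type arrays. AT1G33670 had signals of 8.54 and 3.60 in wer myb23 and 69.4 and 65.2 in wild type (-2.85 ± 0.49, adjusted p = 0.020). On standard medium the order was the other way round, with 39.6 and 28.7 in wer myb23 and 7.16 and 19.8 in wild type (1.21 ± 0.49, adjusted p = 0.50). In the salt response the gene fell by 1.94 in wer myb23 (adjusted p = 0.012) and rose by 2.12 in wild type (adjusted p = 0.0076), and the test of the difference between them gave -4.06 ± 0.70 (adjusted p = 0.092). AT5G67430 read 10.9 and 6.73 in wer myb23 and 61.1 and 102 in wild type (-2.71 ± 0.56, adjusted p = 0.050). AT5G61190 read 5.06 and 16.6 in wer myb23 and 90.1 and 67.7 in wild type (-2.58 ± 0.50, adjusted p = 0.036). These 3 genes and ATPMEPCRB were the called genes whose wer myb23 mean lay under the 25th percentile of signals. AT1G33670 lost its call without wer myb23 replicate 2 (adjusted p = 0.10) and without wild type replicate 1 (adjusted p = 0.055). AT5G61190 kept its call only without wer myb23 replicate 2, and AT5G67430 was called only with all 4 arrays. AT1G73930 was brighter, at 46.2 and 32.9 in wer myb23 and 111 and 144 in wild type (-1.60 ± 0.31, adjusted p = 0.036), and read 173 and 157 in wer myb23 and 117 and 118 in wild type on standard medium. Its salt response in wer myb23 was -1.97 (adjusted p = 0.00014), and its genotype call was kept only when wild type replicate 1 was left out.

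The remaining 8 called genes that were lower in wer myb23 had smaller differences, from -1.01 to -0.82. On the salt arrays of both genotypes they were brighter than the genes of the preceding paragraph. MSRB9 is a methionine sulfoxide reductase, an enzyme that repairs oxidized methionine. It read 1105 and 1144 in wer myb23 and 2241 and 1971 in wild type (-0.90 ± 0.15, adjusted p = 0.015). Salt lowered it in both genotypes, by 1.85 in wer myb23 (adjusted p = 2.7e-08) and by 1.29 in wild type (adjusted p = 5.1e-06). YLS5, also named DJ-1e, read 279 and 229 in wer myb23 and 472 and 430 in wild type (-0.82 ± 0.17, adjusted p = 0.046). AT3G10720 read 321 and 351 in wer myb23 and 733 and 602 in wild type (-0.98 ± 0.17, adjusted p = 0.022), and salt lowered it by 2.17 in wer myb23 (adjusted p = 1.6e-08) and by 1.25 in wild type (adjusted p = 3.9e-05). AT5G10130 read 849 and 956 in wer myb23 and 2224 and 1418 in wild type (-0.98 ± 0.20, adjusted p = 0.046). Its wild type arrays differed more from each other than its mutant arrays did, and without wild type replicate 1 the difference was -0.65 (adjusted p = 0.29). AT5G66590 read 335 and 332 in wer myb23 and 699 and 543 in wild type (-0.88 ± 0.17, adjusted p = 0.036). For AT3G10720, AT5G10130, AT5G66590 and MSRB9 the call was kept when wild type replicate 2 was left out and lost without each of the other 3 salt arrays.

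The last 3 of these, with YLS5, lost their call whichever salt array was left out. AT4G29690 read 511 and 497 in wer myb23 and 925 and 879 in wild type on salt (-0.83 ± 0.17, adjusted p = 0.044), and 422 and 573 in wer myb23 and 1216 and 1002 in wild type on standard medium. With AT5G35940 it was the only named gene called on both media (-1.16 ± 0.17 on standard medium, adjusted p = 0.0039). AT1G47830 read 349 and 409 in wer myb23 and 725 and 680 in wild type (-0.88 ± 0.17, adjusted p = 0.038). AT5G49280 read 239 and 211 in wer myb23 and 417 and 499 in wild type (-1.01 ± 0.21, adjusted p = 0.048), with 0.07 ± 0.21 on standard medium.

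Of the 5 genes called higher in wer myb23, 3 read low on the wild type arrays on salt and showed no called salt response in wer myb23. CYP71B23, a cytochrome P450, read 122 and 126 in wer myb23 and 27.9 and 14.8 in wild type on salt. On standard medium it read 112 and 126 in wer myb23 and 91.1 and 59.3 in wild type. The genotype difference was 2.39 ± 0.36 on salt (adjusted p = 0.0048) and 0.66 ± 0.36 on standard medium (adjusted p = 0.65). Within wild type the gene fell by 1.66 on salt (adjusted p = 0.0044), and within wer myb23 the change was 0.06 (adjusted p = 0.96). Without wer myb23 replicate 1 the genotype difference was 2.41 (adjusted p = 0.070). Of the 12 tested cytochromes P450, CYP71B23 was the only gene called, where 0.205% of all tested probe sets were. The list's median was -0.13 beside 0.01 over all probe sets.

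AT2G35730 read 133 and 96.0 in wer myb23 and 7.37 and 18.4 in wild type on salt, against 104 and 86.7 in wer myb23 and 108 and 79.9 in wild type on standard medium. The difference was 2.87 ± 0.53 on salt (adjusted p = 0.032) and 0.04 ± 0.53 on standard medium, and wild type fell by 2.59 on salt (adjusted p = 0.0026). AT4G28740 read 131 and 108 in wer myb23 and 41.7 and 8.18 in wild type on salt (2.37 ± 0.47, adjusted p = 0.044). On standard medium it read 86.3 and 74.6 in wer myb23 and 97.7 and 76.0 in wild type (-0.10 ± 0.47). Both wer myb23 arrays on salt lay above those on standard medium, a response of 0.54 that was not called (adjusted p = 0.59), and wild type fell by 1.93 (adjusted p = 0.012). Its wild type arrays on salt lay far apart, and the difference was 1.42 without wild type replicate 2 (adjusted p = 0.19) and 3.32 without wild type replicate 1 (adjusted p = 0.0021). AT2G35730 kept its call only when wild type replicate 2 was left out. The test of the difference between media did not pass for any of these 3 genes, with adjusted p of 0.83 for AT2G35730 and AT4G28740 and 0.87 for CYP71B23. Their falls within wild type use the same wild type salt arrays on which the genes were called.

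The other called rises were smaller and in bright genes. AT2G44065 read 1162 and 1260 in wer myb23 and 735 and 677 in wild type (0.78 ± 0.15, adjusted p = 0.036). AT3G02200 read 908 and 829 in wer myb23 and 552 and 473 in wild type (0.76 ± 0.15, adjusted p = 0.046). The first lost its call whichever salt array was left out, and the second kept it only without wild type replicate 1. Next in order of p, and not called, were AT5G22730 with 1.49 ± 0.32 (adjusted p = 0.056), SCL21, a SCARECROW-like gene, with 1.30 ± 0.29 (adjusted p = 0.073), and AT3G07660 with 0.76 ± 0.17 (adjusted p = 0.088). Among probe sets with no gene listed, 259592_at had the smallest p of all: it read 48.3 and 79.8 in wer myb23 and 329 and 305 in wild type (-2.28 ± 0.24, adjusted p = 0.00017), and was also called on standard medium (-2.04 ± 0.24, adjusted p = 0.0010). Probe set 264157_at read 3.81 and 1.67 in wer myb23 and 80.5 and 32.3 in wild type (-3.04 ± 0.39, adjusted p = 0.00087). Its salt response was -5.21 in wer myb23 (adjusted p = 7.8e-09) and -3.20 in wild type (adjusted p = 1.0e-05). Probe set 257262_at was higher, with 796 and 531 in wer myb23 and 323 and 201 in wild type (1.34 ± 0.26, adjusted p = 0.036).

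The arrays on standard medium shared no RNA with those on salt and gave the same genotype comparison a second time. There, 15 probe sets were called (0.0879%), 5 higher (0.0293%) and 10 lower (0.0586%) in wer myb23. Median-centring gave 7 higher and 6 lower there. The balance turned to more higher than lower when either wild type array of standard medium was left out. It stayed on the lower side when either wer myb23 array of standard medium was left out. Of the 35 probe sets called on salt, 31 had the same sign on standard medium, where 57.7% of all tested probe sets did. Of the 27 called lower on salt, 24 were lower on standard medium too, and in 21 the arrays did not overlap, where 21.4% of all probe sets lay lower without overlap. Of the 8 called higher, 7 were higher, and in 6 the arrays did not overlap, where 20.0% of all probe sets lay higher without overlap. The spread of each probe set was fitted over the arrays of both media together. A call on salt therefore favours probe sets with little spread on the standard arrays, which by itself favours a lack of overlap there. How much of these counts without overlap comes from that selection was not tested. Of the 35, 3 were also called on standard medium: AT4G29690, AT5G35940 and 259592_at. Across all tested probe sets the genotype differences on the media correlated with r = 0.143, as a description over 17059 probe sets that are not independent. The 35 probe sets were selected on the salt arrays, so that their median difference was smaller on standard medium is no result: -1.18 on salt and -0.51 on standard medium for those lower, and 1.13 on salt and 0.42 on standard medium for those higher.

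**Figure D2:**
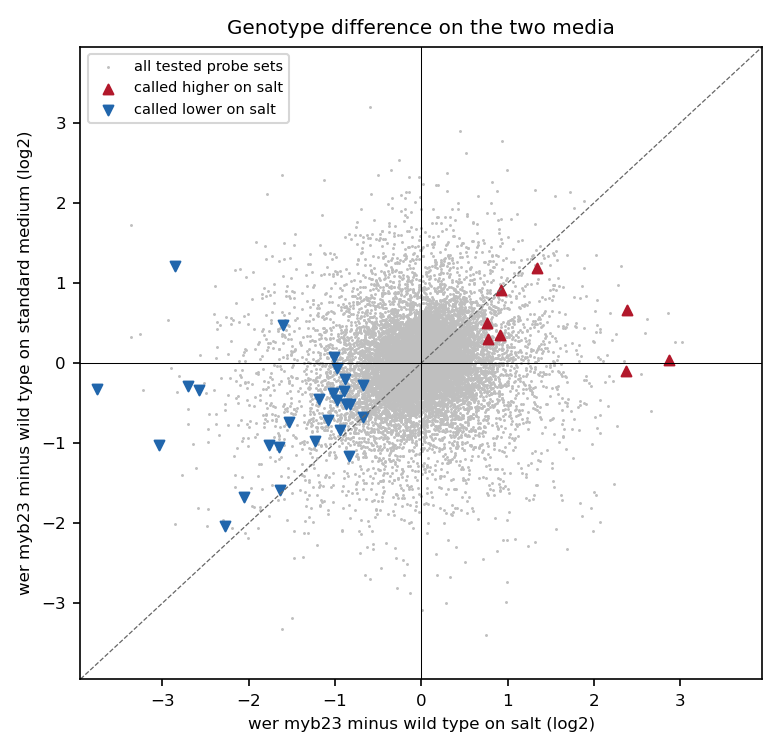
Genotype difference on salt (x axis) and on standard medium (y axis), both wer myb23 minus wild type in log2 units, for all 17059 tested probe sets (grey) and the 8 called higher (upward triangles) and 27 called lower (downward triangles) on salt; the dashed line marks equal differences. Of the called probe sets, 31 lie in the quadrants of equal sign, and AT1G33670 lies at -2.85 on salt and 1.21 on standard medium.

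Seen from the standard arrays, 13 of the 15 probe sets called there had the same sign on salt, and 10 of them an unadjusted p under 0.05 on salt. The p on salt uses the same fitted spread as the call on standard medium, so that count is not independent of the selection. AT2G23910 read 120 and 77.7 in wer myb23 and 132 and 170 in wild type on salt, and its difference of -2.03 ± 0.29 on standard medium (adjusted p = 0.0039) stood beside -0.61 ± 0.29 on salt (adjusted p = 0.53). AT2G27830 was higher on standard medium by 1.54 ± 0.28 (adjusted p = 0.043) and differed by 0.72 ± 0.28 on salt (adjusted p = 0.43), where its arrays read 319 and 312 in wer myb23 and 191 and 189 in wild type. AT2G02730 had opposite signs, with 3.19 ± 0.50 on standard medium (adjusted p = 0.0078) and -0.59 ± 0.50 on salt (adjusted p = 0.77). Whether a genotype difference depended on the medium was tested directly, as the difference on salt minus that on standard medium. The test called 1 of 17059 probe sets (0.00586%), with 860 at an unadjusted p under 0.05. That probe set, 258287_at, has no gene listed and lost its call without 5 of the 8 single arrays, and none of the 35 called on salt passed.

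The wer myb23 mutant was also compared with the other mutants on salt. TRY, a gene named in the cpc try genotype, had the higher signal on the arrays of that label. It read 23.9 and 32.5 in wer myb23 against 501 and 481 on the arrays labelled cpc try (-3.95 ± 0.57, adjusted p = 9.2e-05). Where its probe set lies relative to the try-82 lesion, and whether that lesion lowers the transcript, is not given in the sources used here. All 6 tested root hair genes were called lower on these arrays than in wer myb23, as given below. CPC was not analysed here, and every direction drawn from these arrays rests on their label. These comparisons share the wer myb23 arrays with the one above, so their values are set side by side and no overlap is drawn. Against the arrays labelled cpc try, 1465 probe sets were called (8.59%), 861 higher (5.05%) and 604 lower (3.54%) in wer myb23. The 2 salt arrays of that label lay far apart in the control ratios (log2). Their GAPDH 3′ over 5′ ratio was 2.79 and 1.46, and their actin 3′ to middle ratio was 2.77 and 1.36. The part of these ratios in the counts was not tested. Against scm 47 were called (0.276%), 7 higher (0.041%) and 40 lower (0.234%). Median-centring gave 709 higher and 713 lower against the arrays labelled cpc try, and quantile normalization gave 18 higher and 49 lower against scm. The comparisons of the arrays labelled cpc try and of scm with the same wild type arrays called 953 (5.59%) and 1 (0.00586%). Against the arrays labelled cpc try the largest called rises among named genes were AT2G47540 at 6.85, AT1G30870 at 6.59, AT4G22460 at 5.59 and GH9C1, an endoglucanase of root hairs, at 5.32. The largest called falls were AT5G19100 at -4.75, AT5G01870 at -3.98, TRY at -3.95 and AT1G33670 at -3.65.

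ATPMEPCRB was lower in wer myb23 than in each other genotype on salt, at -2.81 against the arrays labelled cpc try (adjusted p = 0.00047) and -2.70 against scm (adjusted p = 0.013). AT1G33670 was likewise lower than on the arrays labelled cpc try (adjusted p = 4.1e-05) and than in scm (-2.69, adjusted p = 0.018). AT3G10720 differed by -2.03 from the arrays labelled cpc try (adjusted p = 8.8e-08) and by -0.90 from scm (adjusted p = 0.024). AT5G10130 differed by -2.28 from the arrays labelled cpc try (adjusted p = 1.6e-07) and by -1.34 from scm (adjusted p = 0.0036). AT2G43590 took another form: it was lower than scm (-2.02, adjusted p = 0.00016) and differed from the arrays labelled cpc try by -0.01 (adjusted p = 0.99). Of the genes called higher, AT2G35730 differed by 1.95 from the arrays labelled cpc try (adjusted p = 0.024) and by 0.40 from scm (adjusted p = 0.98). AT2G44065 differed by 0.50 from the arrays labelled cpc try (adjusted p = 0.042) and by 0.37 from scm (adjusted p = 0.51). CYP71B23 differed by 0.32 from the arrays labelled cpc try (adjusted p = 0.69) and by 1.08 from scm (adjusted p = 0.33). AT4G28740 differed by 0.22 from the arrays labelled cpc try (adjusted p = 0.86) and by 0.48 from scm (adjusted p = 0.94). The arrays labelled cpc try lay above the same wild type salt arrays by 2.07 for CYP71B23 (adjusted p = 0.0010). That difference was 2.15 for AT4G28740 (adjusted p = 0.0076) and 0.92 for AT2G35730 (adjusted p = 0.40). For scm minus wild type the values were 1.30, 1.90 and 2.46 in that order, none called.

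**Figure D3:**
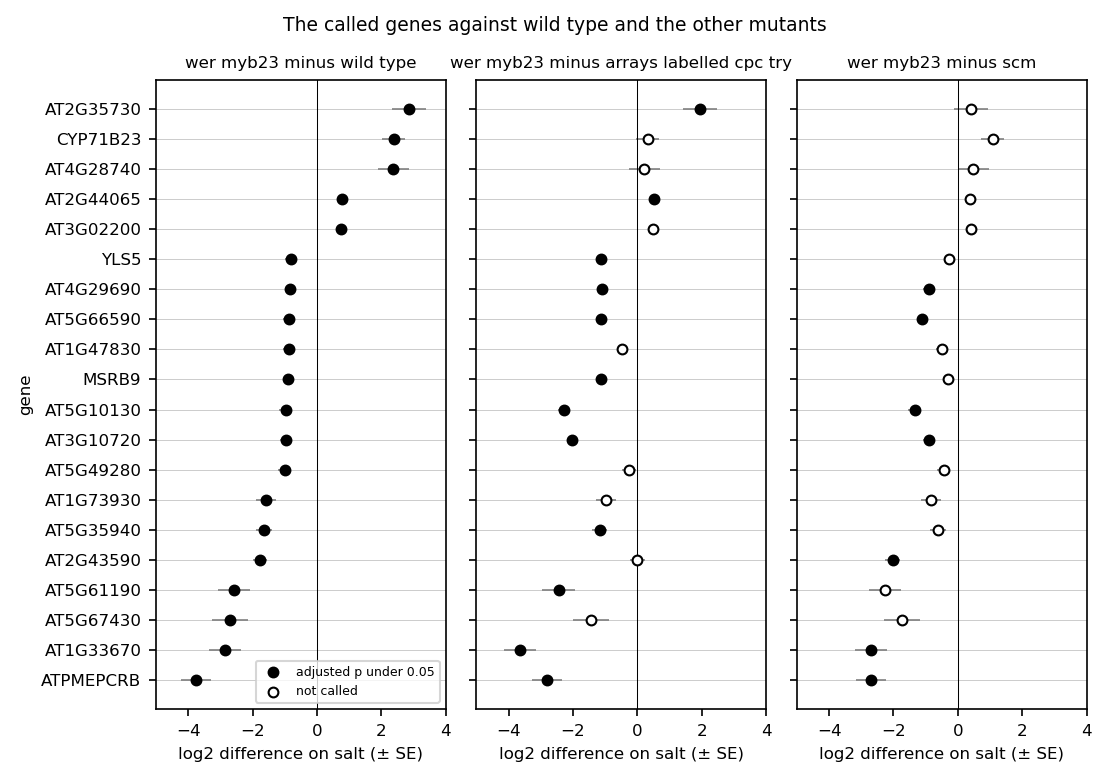
Log2 difference on salt (± SE) of the 20 called genes for wer myb23 minus wild type, wer myb23 minus the arrays labelled cpc try and wer myb23 minus scm, with filled points at an adjusted p under 0.05; all panels share the same 2 wer myb23 arrays. ATPMEPCRB and AT1G33670 are among the genes called lower in all panels, and AT2G43590 lies at -0.01 against the arrays labelled cpc try.

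The mutated genes WEREWOLF and MYB23 were not analysed here, since no probe set carries their name in the annotation used, so the genotype could not be checked on its targeted genes. Of 16 regulators of epidermal fate 3 could be named in the annotation and were tested. None was called, where 0.205% of all tested probe sets were. TRY, the small MYB protein of lateral inhibition, read 23.9 and 32.5 in wer myb23 and 15.6 and 9.98 in wild type on salt (0.94 ± 0.57, adjusted p = 0.64). ATMYC1, a bHLH partner of the MYB proteins, read 410 and 356 in wer myb23 and 318 and 261 in wild type (0.40 ± 0.31, adjusted p = 0.73), and stood 5.07 above the arrays labelled cpc try (adjusted p = 6.3e-10). JKD, a zinc finger protein of the ground tissue that acts on epidermal patterning, read 76.6 and 68.6 in wer myb23 and 34.0 and 15.9 in wild type (1.47 ± 0.40, adjusted p = 0.19). The arrays lay higher in wer myb23 without overlap for all 3, where 18.7% of all tested probe sets did, and their 95% intervals ran from -0.25 to 2.14 for TRY, from -0.24 to 1.04 for ATMYC1 and from 0.64 to 2.30 for JKD.

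Of 41 root hair genes 7 could be named and 6 were tested. None of the 6 was called against wild type, where 0.205% of all tested probe sets were, with a median of -0.12. All 6 were called higher against the arrays labelled cpc try, where 5.05% of all tested probe sets were, with a median of 4.58. EXPA7, an expansin of root hairs that loosens the wall, read 734 and 771 in wer myb23 and 1171 and 794 in wild type on salt (-0.36 ± 0.28, 95% interval -0.93 to 0.22). EXPA18, its close relative, read 384 and 534 in wer myb23 and 683 and 329 in wild type (-0.06 ± 0.41). The arrays of the genotypes overlapped for EXPA18 and did not for EXPA7. GH9C1 read 572 and 656 in wer myb23 and 772 and 510 in wild type (-0.03 ± 0.45). SCN1, a regulator of GTPase signalling that keeps hairs to a single site per cell, differed by 0.18 ± 0.16, AT1G30870 by -0.17 ± 0.40 and AT5G04960 by -0.74 ± 0.41. The intervals are wide at this number of arrays, and that for EXPA18 ran from -0.92 to 0.80.

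Other wall genes gave few calls, where 0.205% of all tested probe sets were called. At that share lists of this size would mostly hold no call. The pectin list, with 3 tested members, held 1 gene called lower, ATPMEPCRB, where 0.158% of all probe sets were called lower, and had a median of -0.86. All 3 lay lower in wer myb23 without overlap, where 19.7% of all probe sets did. ATPMEPCRB is among these 3 and was called on the same arrays, so its lack of overlap is no separate result. The list was drawn from gene names and synonyms that mention pectin, so pectin enzymes known by a locus number only could be missing from it. AT5G04960, a pectin methylesterase gene listed with the root hair genes, differed by -0.74 and was not called. None of 7 tested extensins, structural glycoproteins of the wall, was called, and their median was -0.42. AT1G23720 had the smallest adjusted p among them, 0.16, with 787 and 1206 in wer myb23 and 1843 and 1678 in wild type (-0.85 ± 0.22). HRGP1 differed by -0.42 ± 0.34. None of 16 expansins was called, with a median of 0.31. EXPA9 read 1341 and 1342 in wer myb23 and 983 and 1039 in wild type (0.41 ± 0.17, adjusted p = 0.45). None of 43 class III peroxidases was called, and their median was -0.17. Of these, 14 had a positive and 29 a negative difference, beside 8632 positive and 8427 negative over all tested probe sets. The bright peroxidase PRXR1 read 5907 and 5538 in wer myb23 and 6093 and 5988 in wild type (-0.08 ± 0.13). None of 5 tested xyloglucan endotransglucosylases/hydrolases, which cut and rejoin wall xyloglucan, was called, and their median was -0.76. Of these, XTH19 differed by 0.41 ± 0.17 (adjusted p = 0.45) and XTH18 by -0.76 ± 0.25 (adjusted p = 0.31). A further list of the same family had 3 tested members, none called, with a median of -0.17. Over all tested probe sets the median was 0.01.

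**Figure D4:**
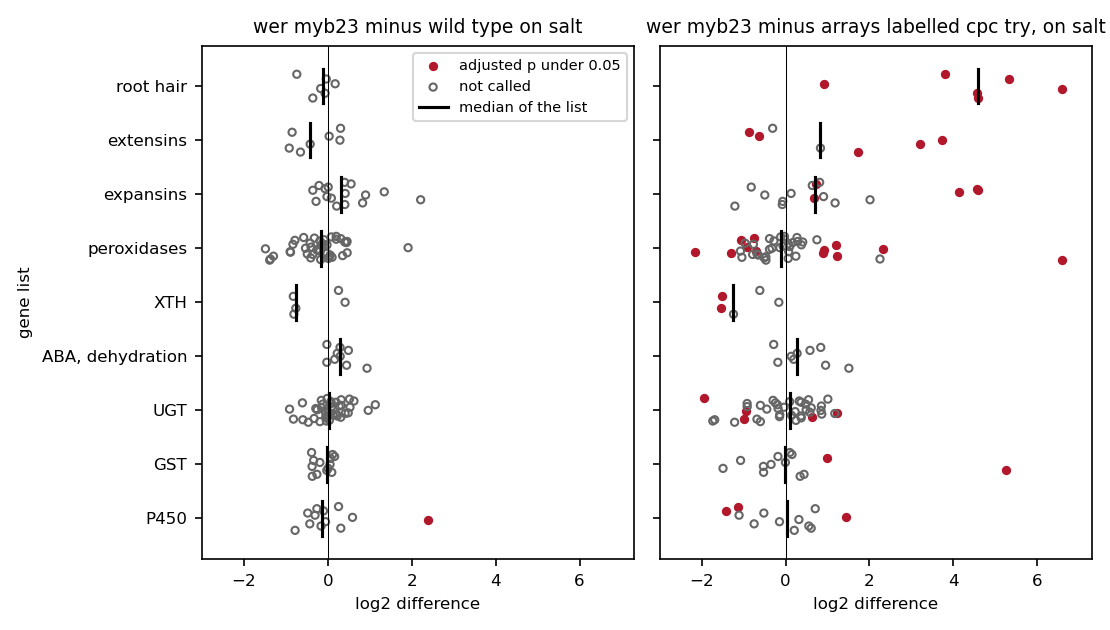
Log2 difference on salt of each tested member of 9 gene lists, for wer myb23 minus wild type and for wer myb23 minus the arrays labelled cpc try; red points have an adjusted p under 0.05 over all probe sets and black bars are list medians. Against wild type the root hair median lies at -0.12 with no member called, and against the arrays labelled cpc try it lies at 4.58 with all 6 tested members called.

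The tested genes of the salt and drought response gave no call between the genotypes, where 0.205% of all tested probe sets were called. At that share lists of this size would mostly hold no call, so its absence is no result about these genes. Of 27 abscisic acid, dehydration and late embryogenesis genes 9 were tested and none was called, with a median of 0.29 and a smallest limma adjusted p of 0.57. COR47, a dehydrin, read 20482 and 17829 in wer myb23 and 18008 and 20930 in wild type (-0.02 ± 0.13, 95% interval -0.30 to 0.26). LTI30, another dehydrin, differed by 0.16 ± 0.17 and LEA4-5, a late embryogenesis protein, by 0.30 ± 0.21. STZ, a zinc finger repressor induced by salt, read 668 and 612 in wer myb23 and 350 and 452 in wild type (0.68 ± 0.27, adjusted p = 0.44), with -0.06 on standard medium. None of 3 auxin genes was called, with the auxin-conjugating enzyme WES1 at -0.03 ± 0.24. DFR, an enzyme of anthocyanin synthesis, read 7.98 and 1.24 in wer myb23 and 37.0 and 38.1 in wild type (-2.37 ± 0.71, adjusted p = 0.27). PDF1.2, a defensin gene of the jasmonate response, read 28.3 and 16.2 in wer myb23 and 83.1 and 75.1 in wild type (-1.70 ± 0.54, adjusted p = 0.29). Of 39 tested UDP-glycosyltransferases and 13 glutathione S-transferases none was called, with medians of 0.02 and -0.02.

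Markers of other root tissues and of shoot were examined for differences in the tissue sampled. Of 30 further markers of green tissue 7 were tested, none was called, and 5 lay lower in wer myb23 without overlap, where 19.7% of all probe sets did. Their signals summed to 1183 and 1205 in wer myb23 and 1485 and 1802 in wild type, and the median difference was -0.46. RCA, the activase of Rubisco, read 272 and 205 in wer myb23 and 332 and 336 in wild type (-0.49 ± 0.26, adjusted p = 0.58). AT1G62500, the only cortex or endodermis marker tested, read 37.4 and 12.3 in wer myb23 and 66.4 and 74.8 in wild type (-1.52 ± 0.41, adjusted p = 0.19). Markers of dividing cells (AUR1 at -0.16 and AUR2 at 0.05), xylem (GUT2 at 0.03 and IRX15 at -0.42) and phloem (SWEET11 at -0.15) were not called. The part of the green tissue and cortex markers in the called differences was not tested. No listed marker of root cap or of the stem cell niche could be named. PEX4, AT4G34270 and AT2G28390, used elsewhere as reference genes, differed by 0.20 ± 0.20, 0.23 ± 0.19 and 0.21 ± 0.19, none called.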

How the data were processed

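RNA of 16 root tip samples was hybridized to 16 arrays, 2 per genotype and medium. The deposited values are linear signal intensities. The submitters' processing notes name MAS5 as the authors' tool, with no version. Arrays were grouped by title; where the mutants' standard arrays have a medium entry with NaCl, title and description were followed.

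Genes came from the platform annotation (13513 probe sets with 1 gene, 503 with several and 8730 with none, of 22746). The 64 control probe sets, and probe sets whose mean lay under the 25th percentile, were left out. Values were used as log2(signal + 4.1), 4.1 being the 10th percentile of the table, so folds of dim genes are understated. limma 3.58.1 in R 4.3.3 fitted 8 group means to all 16 arrays, with a trended prior (8 residual and 12.0 prior degrees of freedom). Benjamini-Hochberg adjustment ran over all 17059 probe sets, and intervals use the moderated spread. The fit was tested on simulated data. The number of arrays limits the precision.

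The comparison, members and gene lists were chosen with earlier results of these data known. Genes named were the called genes without overlap between arrays (up to 15 per direction), those with the smallest p where fewer than 8 were called, and up to 4 called or 2 bright members of each list. In the comparisons with standard medium and the other mutants, the largest or first called genes were named, and for some lists a further member is given that was chosen after its values were seen. Cyclophilins that share the CYP prefix were taken out of the cytochrome P450 list. Where a gene had several probe sets, the brightest was used. Replicate numbers were not paired, since no label ties them to a shared batch and replicate deviations correlated with r from -0.034 to 0.052 over 28 pairs of groups.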

Additional observations from a re-analysis of the deposited data

Results flagged for a closer look

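The genotype difference of 258287_at, a probe set with no gene listed, was called by the limma test of its difference between media, with all arrays: the difference on salt minus that on standard medium was 4.15 ± 0.61 (SE, n = 2 arrays in each of 4 groups, adjusted p = 0.023). On salt it read 295 and 188 in wer myb23 and 146 and 131 in wild type (0.75 ± 0.43, adjusted p = 0.62). On standard medium it read 1.35 and 3.14 in wer myb23 and 85.6 and 45.0 in wild type (-3.40 ± 0.43, adjusted p = 0.0013). Both mutant arrays on standard medium lay at the bottom of the signal range. The call did not hold without wer myb23 replicate 1 on salt (adjusted p = 0.27), wer myb23 replicate 2 on salt (0.072), wild type replicate 2 on salt (0.080), wer myb23 replicate 1 on standard medium (0.070) or wild type replicate 1 on standard medium (0.087), and the difference ran from 3.72 to 4.59 without single arrays. It was also lost with a pseudocount of 32 (2.13, adjusted p = 0.25), with no filter on low values (0.12), with quantile normalization (0.052) and with only the compared groups in the fit (0.21), and under a filter at the 50th percentile the probe set was not tested.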

How the results depend on the processing

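Against the 35 calls on salt, the count was 22 with no filter on low values, 20 with median-centring, 4 with only the compared groups in the fit (1348 at an unadjusted p under 0.05), 15 with only the 8 wer myb23 and wild type arrays, 8 with no trend in the spread, 21 at 2-fold or more and 8 at an adjusted p under 0.01. Without single arrays it ran from 10 to 58. The other alternatives gave 29 to 39. With the replicate number as a block it was 39, and all 20 called genes kept their call. On standard medium the 15 calls became 8 with a pseudocount of 1, with no filter or with only the 8 arrays, 2 with no trend, 7 at an adjusted p under 0.01 and 4 to 37 without single arrays. The 1 call of the test between media became 0 with a pseudocount of 32, no filter, a filter at the 50th percentile, quantile normalization, only the compared groups or 8 arrays, or an adjusted p under 0.01 (575 to 1178 at an unadjusted p under 0.05), 5 with no trend, 2 with the replicate block and 0 to 7 without single arrays. Against the arrays labelled cpc try the 1465 calls became 716 with only the compared groups, 814 with no trend, 785 at 2-fold or more, 733 at an adjusted p under 0.01 and 754 to 1308 without single arrays. Against scm the 47 calls became 78 with a pseudocount of 32, 141 with only the compared groups, 1 with no trend, 71 with the replicate block, 15 at an adjusted p under 0.01 and 8 to 44 without single arrays. None of the 70 named genes changed sign with a call under these alternatives. The cause of these changes was not tested, except where an alternative has fewer samples or a stricter threshold by construction. The lists rest on the part of their genes that the annotation names, and dim genes such as ATPMEPCRB and AT1G33670 in wer myb23 have no detection calls here.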

Other observations

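Core histones and touch genes gave no call on salt, where 0.205% of all tested probe sets were called. The histone gene HTB2 read 424 and 381 in wer myb23 and 607 and 534 in wild type (-0.50 ± 0.18, limma adjusted p = 0.39), and HTR12, the centromeric histone, read 77.4 and 105 in wer myb23 and 151 and 107 in wild type (-0.48 ± 0.31, adjusted p = 0.67). The calmodulin-like genes CML42 and CML23 differed by 0.13 ± 0.20 and 0.13 ± 0.37. EIN3, a transcription factor of ethylene signalling, read 699 and 678 in wer myb23 and 549 and 585 in wild type (0.28 ± 0.19, adjusted p = 0.70).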
